A study of Mus musculus with 21 samples.

Results

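The guanylate-binding proteins are the 9 genes Gbp2, Gbp3, Gbp4, Gbp5, Gbp6, Gbp7, Gbp8, Gbp9 and Gbp10, chosen by symbol from the 55487 genes of the count table. All 9 were matched by identifier, and all 9 were among the 19061 genes that passed the filter on low counts. RNA was sequenced from 21 Hepa1-6 tumours, a mouse hepatoma line grown in C57BL/6 mice. The arms compared were 4 groups: WT mice given isotype antibody (n = 5), WT mice given anti-PD1 with anti-CTLA4 (n = 5), B-cell-depleted mice given isotype antibody (n = 6) and B-cell-depleted mice given anti-PD1 with anti-CTLA4 (n = 5). Every arm carried the same tumour line on the same mouse strain, and the pair of checkpoint antibodies is called the combination here. How B cells were removed, and whether each library is a separate animal, is not given in the labels, so p-values measure the spread between these samples.

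Guanylate-binding proteins are large GTPases of the dynamin superfamily whose genes are switched on by interferons, above all by interferon-gamma acting through JAK kinases and the transcription factor IRF1. The proteins assemble as coats on membranes of microbes and on the vacuoles that hold them, together with the immunity-related GTPases, and they help inflammasomes to form. In tumours their transcripts are widely used as a readout of interferon-gamma, which T cells and NK cells release.

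The members lie in clusters on chromosomes 3 and 5 (GRCm38, GENCODE M21). On the plus strand of chromosome 3 are Gbp5 (142493978 to 142522344), Gbp7 (142530342 to 142550149), Gbp3 (142560026 to 142573209) and Gbp2 (142620602 to 142638008), with Gbp2b between the last pair. On the minus strand of chromosome 5 are Gbp8 (105014150 to 105139540), Gbp9 (105077630 to 105139539), Gbp4 (105115767 to 105139586), Gbp10 (105215699 to 105239533) and Gbp6 (105270702 to 105293698). Gbp4, Gbp8 and Gbp9 have nearly the same 5′ end, where the annotation shares 60 exon bases between Gbp4 and Gbp9 and 61 between Gbp4 and Gbp8.

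Gbp6 and Gbp10 are the members whose counts are least certain. Of the 75-base windows of Gbp10 transcripts, 65.6% also occur in Gbp6 transcripts, and 77.8% occur in at least 1 other gene. For Gbp6 that last share was 67.3%, for Gbp7 11.3%, which comes mostly from the overlapping gene Gm43802, and for the other 6 members 0.578% to 8.04%. A read-through gene, Gm43302, also shares 46.3% of the exon bases of Gbp10 and 29.0% of those of Gbp6, and it was itself listed at 0 to 0.428 CPM (a count scaled per M counts of its library) in the 21 libraries. How the authors' counting treated reads that match more than 1 gene is not given in the sources used here, so the values of Gbp6 and Gbp10 may each hold or lack reads of the other.

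**Figure D1:**
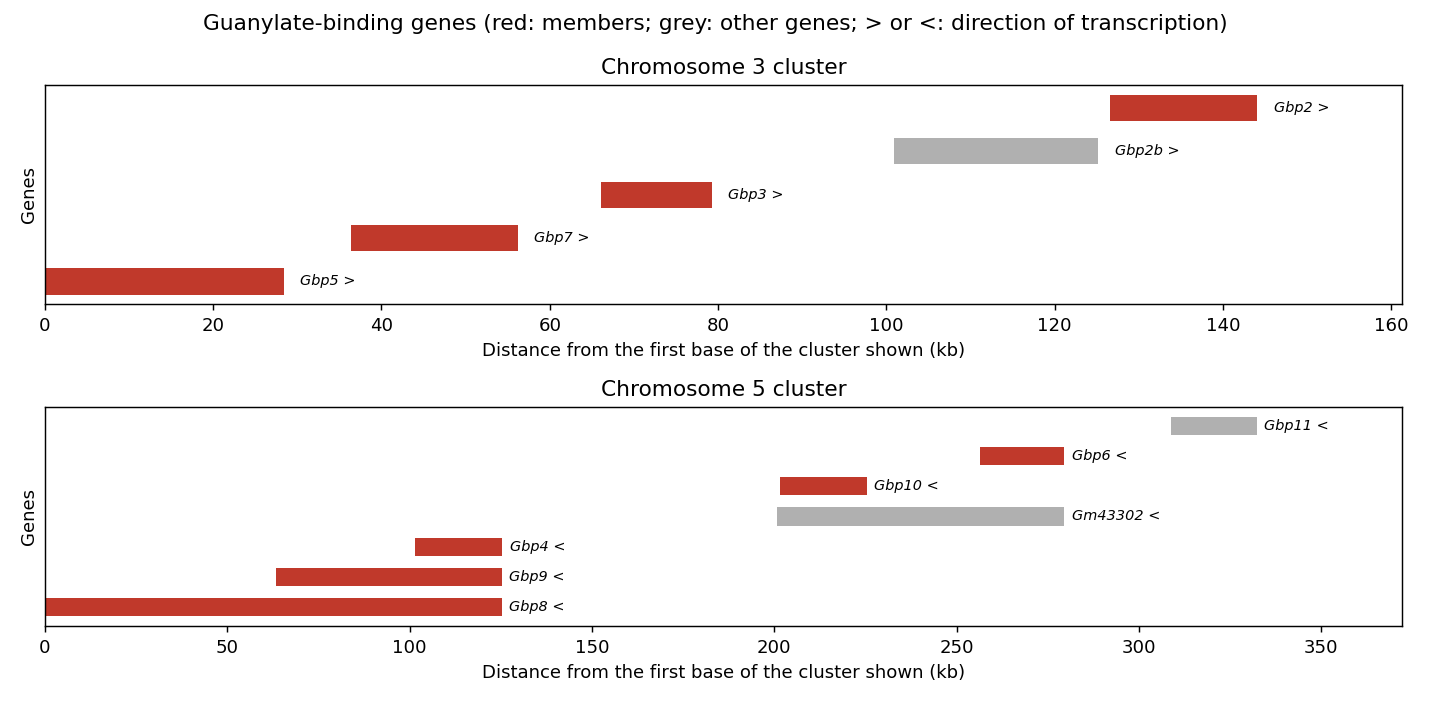
Position of each gene along its cluster, as distance in kb from the first base of the cluster shown, with members in red and other genes in grey. Gm43302 spans both Gbp10 and Gbp6, and Gbp4, Gbp8 and Gbp9 end at the same side.

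Promoter sequence is shown for the chromosome 3 members because interferon-responsive genes are known for 2 short motifs upstream of their start. The ISRE core was searched as TTTCNNTTTC on both strands and the GAS motif as TTCNNNGAA, which reads alike on both strands. RefSeq promoters (GRCm38.p6, 250 bases before to 50 after a start) were matched for 4 members. Each stretch below is the plus strand, 5′ to 3′, with matches of either motif in capitals; all 4 end before the RefSeq start.

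Gbp5, chr3:142496684-142496890: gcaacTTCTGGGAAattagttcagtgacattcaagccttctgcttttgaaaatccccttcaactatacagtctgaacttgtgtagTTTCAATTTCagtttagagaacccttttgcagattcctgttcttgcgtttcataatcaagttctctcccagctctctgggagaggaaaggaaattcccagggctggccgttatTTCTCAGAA
Gbp7, chr3:142530216-142530296: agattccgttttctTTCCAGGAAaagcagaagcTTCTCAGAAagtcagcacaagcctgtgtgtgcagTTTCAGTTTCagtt
Gbp3, chr3:142559924-142560014: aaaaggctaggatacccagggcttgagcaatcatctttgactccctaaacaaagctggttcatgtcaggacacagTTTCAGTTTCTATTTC
Gbp2, chr3:142620543-142620613: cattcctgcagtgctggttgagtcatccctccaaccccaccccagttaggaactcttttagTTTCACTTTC

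The ISRE core occurred in the promoter of each of these 4 members, against 3.44% of the 32851 RefSeq promoters of the same length. It began 165 bases before the start in Gbp5, 53 in Gbp7 and 59 in Gbp2. Gbp3 had 2 overlapping matches, 45 and 39 bases before the start, and its second annotated start had none. The neighbour Gbp2b, which is not a member, had the core as well, 137 bases before its start. The GAS motif occurred in 2 places in Gbp5 and in 2 in Gbp7, against 8.3% of all promoters, and these letters were not in the windows of Gbp2 and Gbp3. The Gbp5 start used by RefSeq lies inside the GENCODE gene span, and the stretch shown overlaps none of its exons. The GENCODE gene Gbp2 begins before the RefSeq start, so the last 12 bases of its stretch, with the whole ISRE core (142620604 to 142620613), lie in an annotated exon. A match is a description of the letters and shows no binding.

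Total counts ran from 9.523 to 19.17 M per library, and the lowest count of any member in any library was 103, so counting error was small beside the spread between libraries. Hepatoma and hepatocyte markers (Alb, Afp, Apob, Apoa1, Ttr, Hnf4a) summed to 144.2 to 4308 CPM over the libraries. B-cell markers (Cd79a, Cd79b, Ms4a1, Cd22, Fcrla) summed to 6.88 to 16.29 CPM in WT isotype and 5.259 to 14.83 CPM in B-depleted isotype, and 0 of 5 were called by edgeR (1 of 5 at an unadjusted p under 0.05). Under the combination they summed to 30.51 to 66.39 CPM in WT and 12.87 to 25.63 CPM in B-depleted tumours, and all 5 were lower in the latter.

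All 9 members rose with the combination in WT tumours, by about 1.7-fold to 2.5-fold. The 9 together went from 1423 ± 486 CPM in WT isotype to 3114 ± 270 CPM in WT combination (SD, n = 5 each). Tests used edgeR's quasi-likelihood method on all 21 libraries, and a gene was called where the Benjamini-Hochberg adjusted p over all 19061 genes was under 0.05. By that rule 25.0% of all genes tested were called higher in this comparison, and the median log2 fold change was 1.17 over the members and -0.000857 over all genes.

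Gbp2 and Gbp5 encode proteins with a C-terminal lipid anchor motif, and both have been linked to inflammasomes. Gbp2 stood at 600.5, 776.2, 343.6, 307.3 and 626.6 CPM in WT isotype replicates 1 to 5 and at 1576, 1241, 1293, 1206 and 1084 CPM in WT combination replicates 1 to 5. Every combination library was above every isotype library, and isotype replicates 3 and 4 were the low ones. The log2 fold change of Gbp2 was 1.29 ± 0.33 (SE; edgeR adjusted p = 0.00339). Gbp5 stood at 97.82, 123.1, 71.15, 65.45 and 92.0 CPM in WT isotype and at 223.4, 248.6, 200.0, 227.5 and 220.5 CPM in WT combination. Its arms lay apart as well, and it had the largest estimate of the 9, 1.34 ± 0.26 (edgeR adjusted p = 0.000579).

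The other chromosome 3 members rose less by their estimates. Gbp7, which has been linked to autophagy and to the phagocyte oxidase, went from 202 ± 55.1 to 384 ± 29.7 CPM (SD, n = 5 each; log2 fold change 0.95 ± 0.22, edgeR adjusted p = 0.00174). Gbp3 went from 105 ± 36.8 to 199 ± 23.9 CPM, a log2 fold change of 0.95 ± 0.27 (edgeR adjusted p = 0.00705). Neither gene had overlapping arms: the highest isotype libraries were at 272.5 CPM for Gbp7 and 153.0 CPM for Gbp3, below the lowest combination libraries at 345.4 and 162.7 CPM.

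On chromosome 5, Gbp8 stood at 102.2, 124.3, 48.69, 59.61 and 92.66 CPM in WT isotype and at 179.3, 191.3, 155.9, 236.4 and 200.2 CPM in WT combination. The arms did not overlap, and the log2 fold change was 1.20 ± 0.24 (edgeR adjusted p = 0.000779). Gbp4 went from 237 ± 86.3 to 524 ± 52.3 CPM (1.17 ± 0.27, edgeR adjusted p = 0.00208). Gbp9 had the smallest estimate of the 9, 0.75 ± 0.20 (edgeR adjusted p = 0.00414), at 120 ± 38.2 and 200 ± 18.0 CPM. Its arms still lay apart, with 164.6 CPM the highest isotype library and 170.5 CPM the lowest combination library.

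Gbp6 and Gbp10 share much of their transcript sequence. Gbp6 went from 26.9 ± 9.12 to 61.5 ± 6.81 CPM (1.22 ± 0.27, edgeR adjusted p = 0.00149), with no overlap. Gbp10 stood at 32.74, 39.51, 15.58, 11.62 and 26.7 CPM in WT isotype and at 56.18, 50.82, 60.13, 41.05 and 36.1 CPM in WT combination. Combination replicate 5 was below isotype replicate 2, so the arms overlapped, and Gbp10 had the weakest call (0.98 ± 0.36, edgeR adjusted p = 0.0309). In all, 8 of 9 members had arms that did not overlap, against 15.0% of all genes.

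Leaving out single libraries changed 1 of these calls. Gbp10 kept its call in 15 of 21 such refits. It lost it without WT isotype replicate 3, 4 or 5 (edgeR adjusted p = 0.0755, 0.0845 and 0.0535) and without WT combination replicate 1, 2 or 3 (0.0553, 0.0527 and 0.0614).

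Other transcripts moved with the members in WT tumours. Among cell markers called by edgeR, 8 of 8 T-cell genes, 7 of 7 macrophage genes, 5 of 5 B-cell genes and 5 of 7 fibroblast genes were higher, and 6 of 6 hepatoma genes were lower. Fewer were higher for NK cells (1 of 3), dendritic cells (1 of 5) and endothelium (3 of 6). Of all genes 25.0% were called higher, and the dendritic-cell count is not above that share. Of 5 neutrophil genes 1 was higher and 1 lower, and 0 of 4 skeletal muscle genes were called. None of these markers was at 0 throughout an arm. Summed T-cell markers were 65.15 to 127.9 CPM in WT isotype and 296.3 to 487.7 CPM in WT combination, macrophage markers 695.3 to 1458 and 1684 to 3349 CPM, and hepatoma markers 1146 to 4308 and 144.2 to 1249 CPM. Of 7 mitochondrially encoded transcripts, read as a sign of RNA quality, 4 were lower (median log2 fold change of the 7 -0.76), with sums of 14890 to 20030 CPM in WT isotype and 8924 to 17100 CPM in WT combination. In bulk tissue more cells of a type and more RNA per cell cannot be told apart, and the part of cell content or RNA quality in the members' rise was not tested.

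Further values bear on this comparison. Without WT isotype replicates 1 and 2 all 9 members were still called, with log2 fold changes from 1.08 to 1.60. These 2 libraries had lower summed hepatoma markers (1146 and 1252 CPM) than the other 3 (2757 CPM or more). They also had the highest member sums of the arm, 1637 and 2041 CPM against 924 to 1582 CPM. Leaving them out lowers the isotype level of the members, so this refit is no independent check of their rise. Summed Y-linked transcripts (Ddx3y, Uty, Kdm5d, Eif2s3y) were 47.57 to 79.16 CPM in WT isotype and 134.7 to 250.5 CPM in WT combination. With them as a covariate, 0 of 9 members and 77 genes in all were called, and the median log2 fold change of the members was 0.67. Since the covariate did not overlap between these arms, it and the treatment cannot be told apart in that fit.

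**Figure D2:**
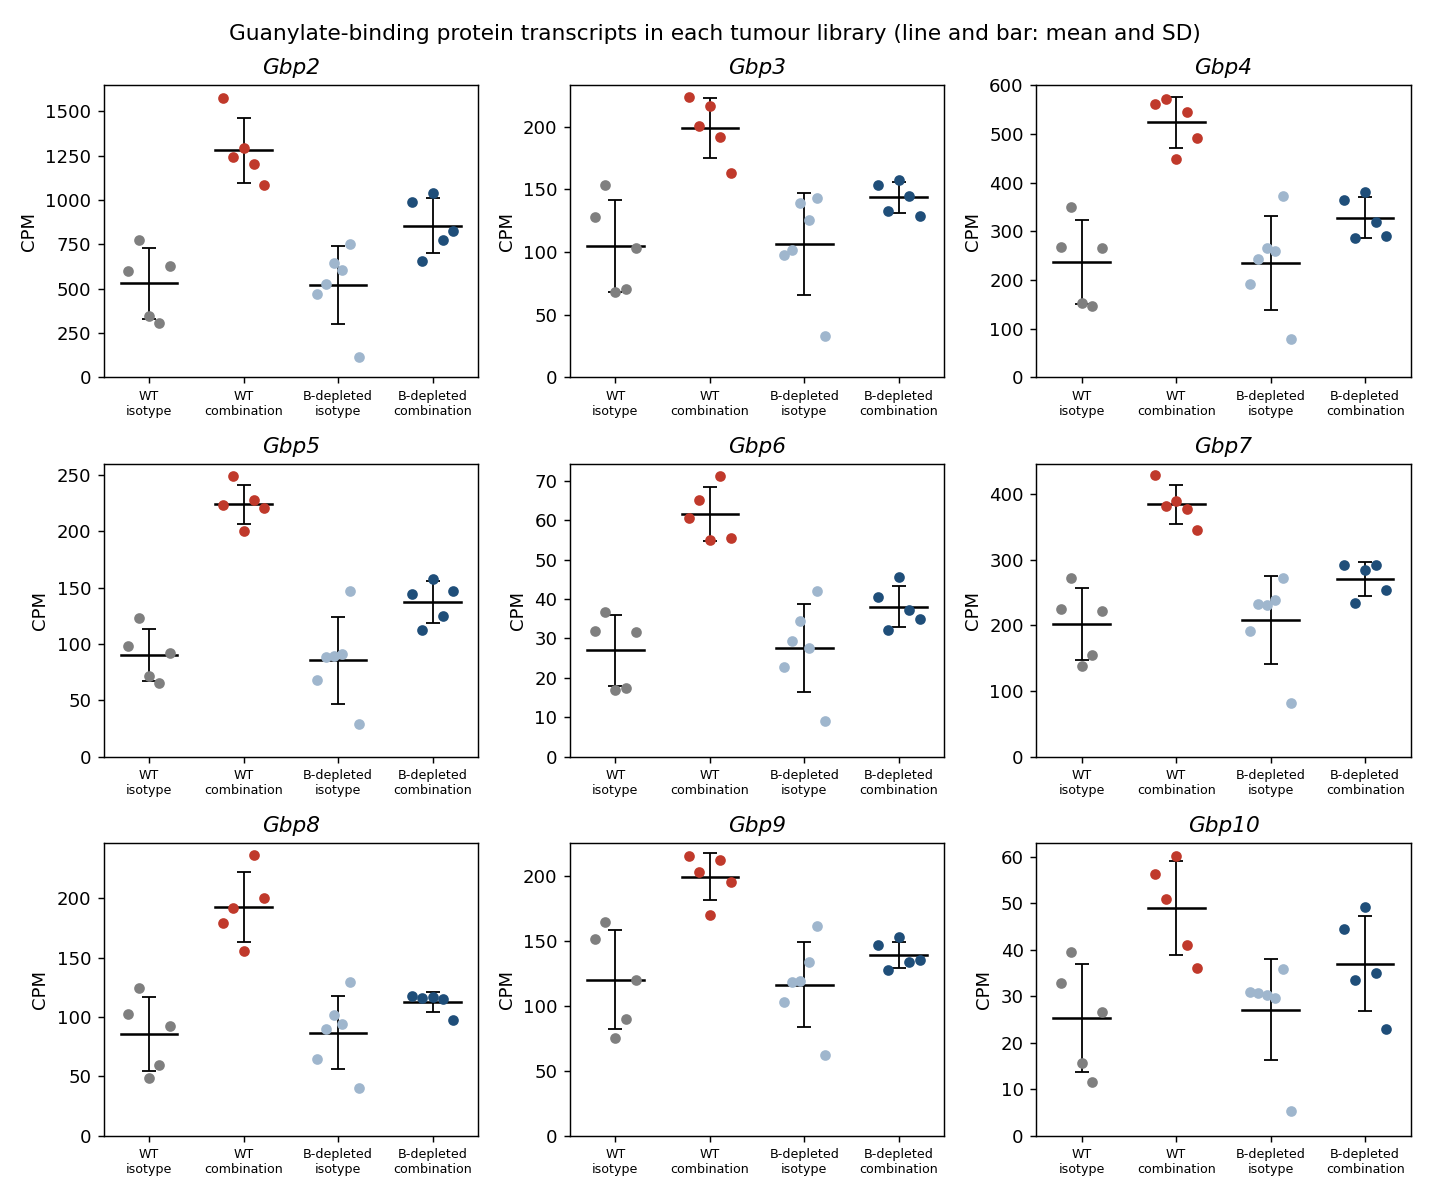
CPM of each member (vertical axis, from 0) in the libraries of the 4 arms (points, in replicate order), with the mean as a line and the SD as a bar. The WT combination points lie above the WT isotype points for every member but Gbp10, and B-depleted isotype replicate 6 is the lowest point of its arm throughout.

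In B-depleted tumours the members had smaller estimates, and 0 of 9 were called. Of all genes, 0.341% were called in this comparison, 65 in number, so few genes of any kind passed. The 9 members together were at 1412 ± 540 CPM in B-depleted isotype (SD, n = 6) and 2063 ± 269 CPM in B-depleted combination (n = 5). All 9 estimates were positive, from 0.28 to 0.74 on the log2 scale with a median of 0.47 (0.0164 over all genes). At an unadjusted p under 0.05 there were 2 members, Gbp2 and Gbp5, against 10.2% of all genes in that direction, and the adjusted p of the 9 ran from 0.201 to 0.552. DESeq2 and limma voom also called 0 of 9. Among cell markers, edgeR called 3 of 8 T-cell genes higher, and 6 of 8 had an unadjusted p under 0.05. Of 7 macrophage genes 0 were called and 6 had such a p, and no marker of the other cell lists was called. The part of cell content in the members' estimates was not tested.

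Gbp2 stood at 470.7, 528.4, 643.8, 606.3, 752.5 and 115.2 CPM in B-depleted isotype replicates 1 to 6 and at 987.3, 654.7, 1040, 774.2 and 826.6 CPM in B-depleted combination replicates 1 to 5. Replicate 5 of the isotype arm lay above replicate 2 of the combination arm, so the arms overlapped (log2 fold change 0.74 ± 0.31, edgeR adjusted p = 0.277). Gbp5 stood at 67.99, 88.06, 89.03, 91.03, 147.1 and 28.8 CPM and at 144.4, 112.1, 157.6, 124.6 and 146.7 CPM in the same order. Here too isotype replicate 5 lay among the combination libraries (0.71 ± 0.25, edgeR adjusted p = 0.201).

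Gbp8 stood at 64.36, 90.18, 102.0, 93.93, 129.3 and 40.43 CPM in B-depleted isotype and at 117.6, 115.9, 116.7, 115.2 and 97.61 CPM in B-depleted combination. The combination libraries were close together and isotype replicate 5 was above them all (0.40 ± 0.23, edgeR adjusted p = 0.440). The interval of this difference ran from -0.08 to 0.88 (95%), so a rise of up to 0.88 on the log2 scale lies within it. The other 6 members had overlapping arms as well, and their 95% intervals all included 0.

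B-depleted isotype replicate 6 was the lowest library of its arm for all 9 members. The members summed to 456.2 CPM there and to 1241 to 2056 CPM in the other 5, although this library had the highest total count. Its immunity-related GTPases were also the lowest of the arm at 466.2 CPM, as were its T-cell markers at 42.26 CPM, while its neutrophil markers were the highest at 346.2 CPM; their part in the low member values was not tested. Without it the members' estimates were smaller, from 0.15 to 0.53, and 0 of 9 were called. Without B-depleted isotype replicates 3 and 5 and combination replicate 5, which had the highest summed B-cell markers of their arms (13.28, 14.83 and 25.63 CPM, against 5.259 to 10.36 CPM in the other isotype and 12.87 to 18.33 CPM in the other combination libraries), the estimates were 0.43 to 1.01 and again 0 of 9 were called (lowest edgeR adjusted p = 0.0562, Gbp5).

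**Figure D3:**
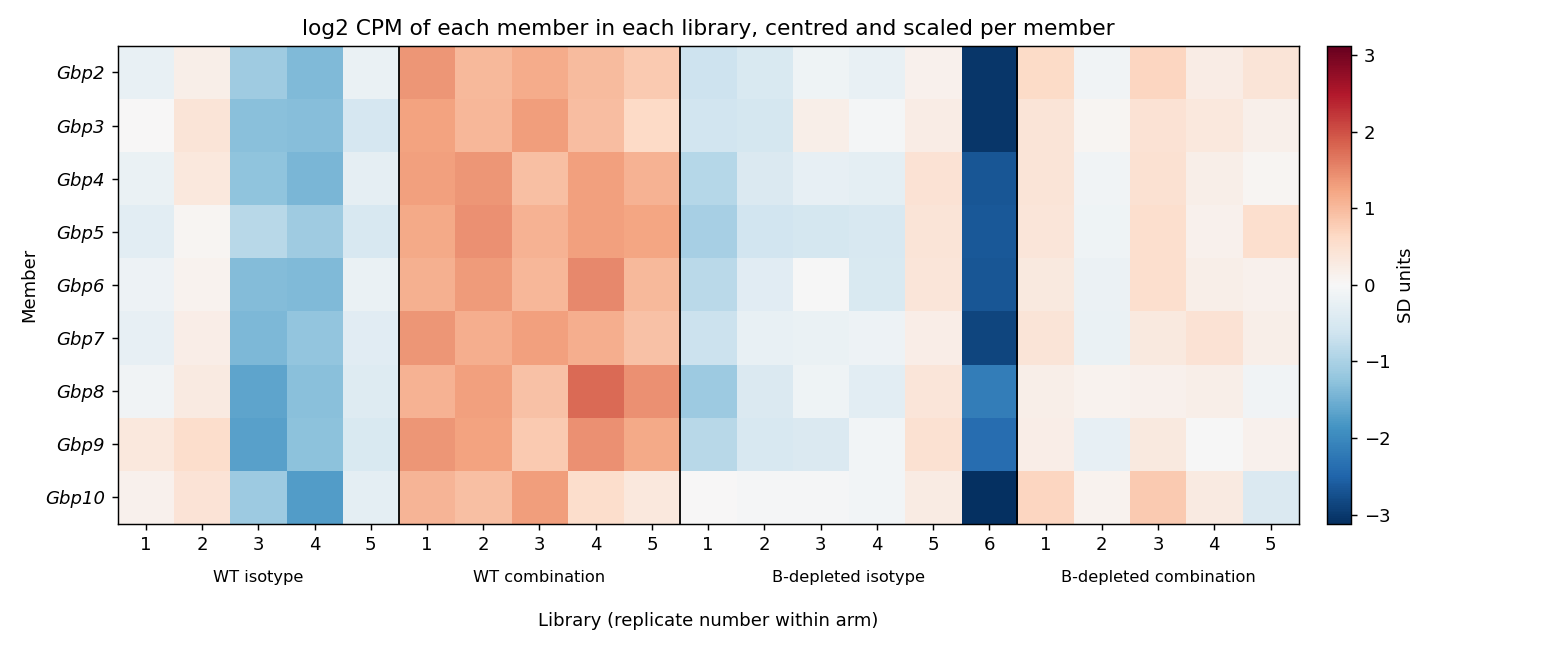
Level of each member (rows) in each library (columns, by arm and replicate number) as log2 CPM, centred on the member's mean over 21 libraries and divided by its SD, with red above and blue below the mean. Columns are nearly uniform in colour, B-depleted isotype replicate 6 is the darkest blue, and WT isotype replicates 3 and 4 are blue throughout.

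Under isotype antibody no member was found to differ between B-depleted and WT tumours. The 9 log2 fold changes, B-depleted against WT, ran from -0.09 to 0.09 with SEs from 0.19 to 0.35, and 0 of 9 were called (all edgeR adjusted p = 0.99978). No gene was called in this comparison (0% of 19061; 563 genes, 2.95%, at an unadjusted p under 0.05, 0 of them members; DESeq2 called 5 genes and limma voom 0, neither any member). The widest 95% interval, that of Gbp10, ran from -0.63 to 0.81 and the narrowest, that of Gbp9, from -0.45 to 0.33. A difference within a member's interval was not excluded, so the lack of calls does not show that there was none.

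Under the combination all 9 members had lower estimates in B-depleted than in WT tumours, and 3 of 9 were called. Of all genes, 13.5% were called lower. Gbp8 fell from 193 ± 29.6 CPM in WT to 113 ± 8.43 CPM in B-depleted tumours (SD, n = 5 each; -0.79 ± 0.24, edgeR adjusted p = 0.0232). Gbp5 fell from 224 ± 17.4 to 137 ± 18.4 CPM (-0.72 ± 0.26, edgeR adjusted p = 0.0418) and Gbp9 from 200 ± 18.0 to 139 ± 10.2 CPM (-0.53 ± 0.20, edgeR adjusted p = 0.0462). Their libraries were given above, and for each of these 3 every B-depleted library lay below every WT library.

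The arms were also apart for Gbp2, Gbp3, Gbp4, Gbp6 and Gbp7, which makes 8 of 9 members against 6.03% of all genes, and only Gbp10 overlapped. Gbp4 (-0.69 ± 0.27, edgeR adjusted p = 0.0604), Gbp6 (-0.71 ± 0.27, 0.0528) and Gbp7 (-0.52 ± 0.22, 0.0726) just missed the threshold. Gbp2 was at 1280 ± 183 CPM in WT and 856 ± 157.3 CPM in B-depleted tumours (-0.59 ± 0.32, 0.162), Gbp3 at 199 ± 23.9 and 144 ± 12.6 CPM (-0.49 ± 0.27, 0.167) and Gbp10 at 48.9 ± 10.1 and 37.0 ± 10.3 CPM (-0.42 ± 0.36, 0.374). The median log2 fold change was -0.59 over the members and 0.00337 over all genes.

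This count depended on the libraries and on the fit. The fit used above called 5545 of 19061 genes in either direction. Fitted with the 2 compared arms alone, 8 of 9 members were called, and 3727 of 17704 genes in all. With DESeq2 it was 5 members and 6455 of 19061 genes, and without the filter on low counts 0 of 9 members and 3343 of 39551 genes. With the summed Y-linked transcripts as a covariate 0 of 9 members and 4 genes in all were called, and the estimates of Gbp8, Gbp5 and Gbp9 were -0.35, -0.40 and -0.27. These transcripts summed to 134.7 to 250.5 CPM in WT and 85.88 to 168.8 CPM in B-depleted combination libraries, so the arms overlapped in them. Without B-depleted isotype replicate 6, a library of neither arm, 8 members were called, and without B-depleted isotype replicate 5, 5 were. Without WT combination replicate 4 or 5 the count was 0, and it was 1 without WT isotype replicate 5, WT combination replicate 1 or 2, B-depleted isotype replicate 4, or B-depleted combination replicate 1, 2, 3 or 4. Gbp8 kept its call in 19 of 21 such refits, Gbp5 in 11 and Gbp9 in 8, and all 9 estimates stayed negative in every one. Over all genes, 2182 to 7606 were called in these refits.

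Markers of other cells differed between these arms as well. By edgeR, 6 of 8 T-cell, 6 of 7 macrophage and 5 of 5 B-cell markers were lower in B-depleted than in WT combination tumours, and 6 of 6 hepatoma markers were higher. Also lower were 4 of 5 dendritic-cell, 1 of 3 NK-cell, 2 of 4 skeletal muscle and 1 of 7 fibroblast markers. Of all genes 13.5% were called lower, and the fibroblast count is near that share. In either direction 5545 of 19061 genes were called. Of 6 endothelial and 5 neutrophil markers 0 were called, and 1 of the 2 adipocyte markers tested was higher. Of the 7 mitochondrially encoded transcripts 0 were called (0 of 7 at an unadjusted p under 0.05). Summed T-cell markers were 175.6 to 245.1 CPM in B-depleted against 296.3 to 487.7 CPM in WT combination; their part in the members' difference was not tested.

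The difference between the 2 antibody responses was tested as an interaction, and 0 of 9 members were called (0.0262% of all genes were called, 5 in number). All 9 estimates were negative, from -0.47 for Gbp9 to -0.80 for Gbp8, and Gbp8 alone was under an unadjusted p of 0.05 by edgeR (adjusted p = 0.152). In that direction 10.8% of all genes had such a p. The 95% interval of Gbp8 was -1.50 to -0.10, and those of the other 8 included 0. DESeq2, which called 1181 genes, and limma voom called 0 members. Without WT isotype replicates 1 and 2 there were 2007 genes called, 2 members among them: Gbp8 at -1.16 (edgeR adjusted p = 0.0396) and Gbp9 at -0.81 (0.0486). Those 2 libraries had the highest member sums of their arm (1637 and 2041 CPM), so leaving them out enlarges the members' response in WT. A larger response in WT than in B-depleted tumours is therefore not shown for the members by the fit to all libraries.

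**Figure D4:**
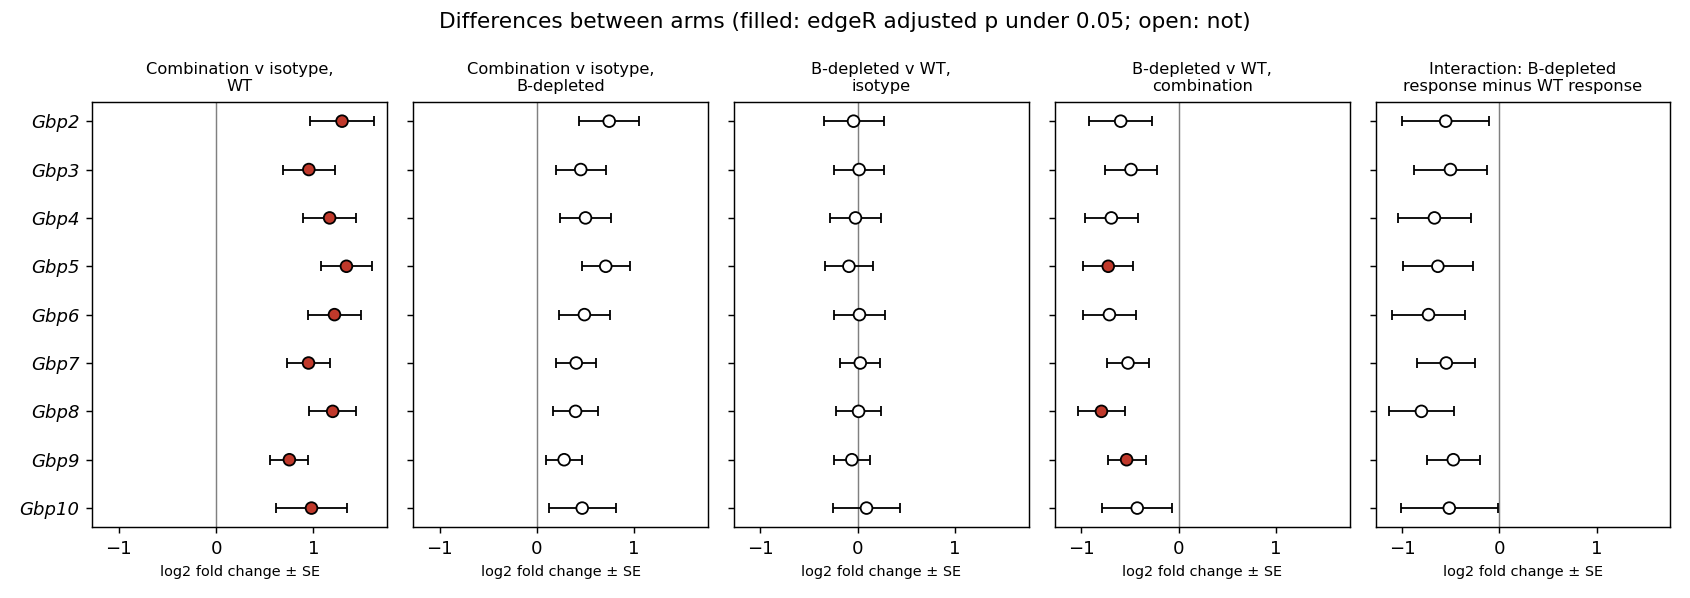
log2 fold change of each member (points) with its SE (bars) in the 4 comparisons and the interaction; filled points passed an edgeR adjusted p of 0.05. All 9 are filled in WT, 3 in the comparison under the combination, and none in the other panels.

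Per length, Gbp2 was the most abundant member in every arm. It stood at 211 ± 79.3 CPM per kb of annotated exon in WT isotype, 509 ± 72.5 in WT combination, 207 ± 87.7 in B-depleted isotype and 340 ± 62.6 in B-depleted combination (SD). In WT combination the next by mean were Gbp4 (69.9 ± 6.98), Gbp7 (68.5 ± 5.28), Gbp3 (60.9 ± 7.32) and Gbp8 (56.0 ± 8.59). Their ranges over the libraries overlapped. Gbp9 (38.6 ± 3.49) and Gbp5 (33.8 ± 2.62) lay below them, with ranges that overlapped each other. Gbp10 (12.6 ± 2.61) and Gbp6 (10.3 ± 1.14) were last, and their ranges overlapped too. Members with overlapping ranges were not compared within each library, so their order there is not given. The lengths include sequence shared with other genes, 77.8% of the 75-base windows of Gbp10 and 67.3% of those of Gbp6. If reads from such sequence were left uncounted, the levels of Gbp10 and Gbp6 per kb would be too low, so their place is not set.

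The order in the middle depends on which length is used. Gbp5 has 6637 bases of annotated exon and 3055 in its longest coding transcript, and in WT combination its rank went from 7 per kb of exon to 5 per kb of transcript. Gbp6 and Gbp10, last by both lengths as counted, changed places. Gbp2 was first by both lengths in all 4 arms.

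**Figure D5:**
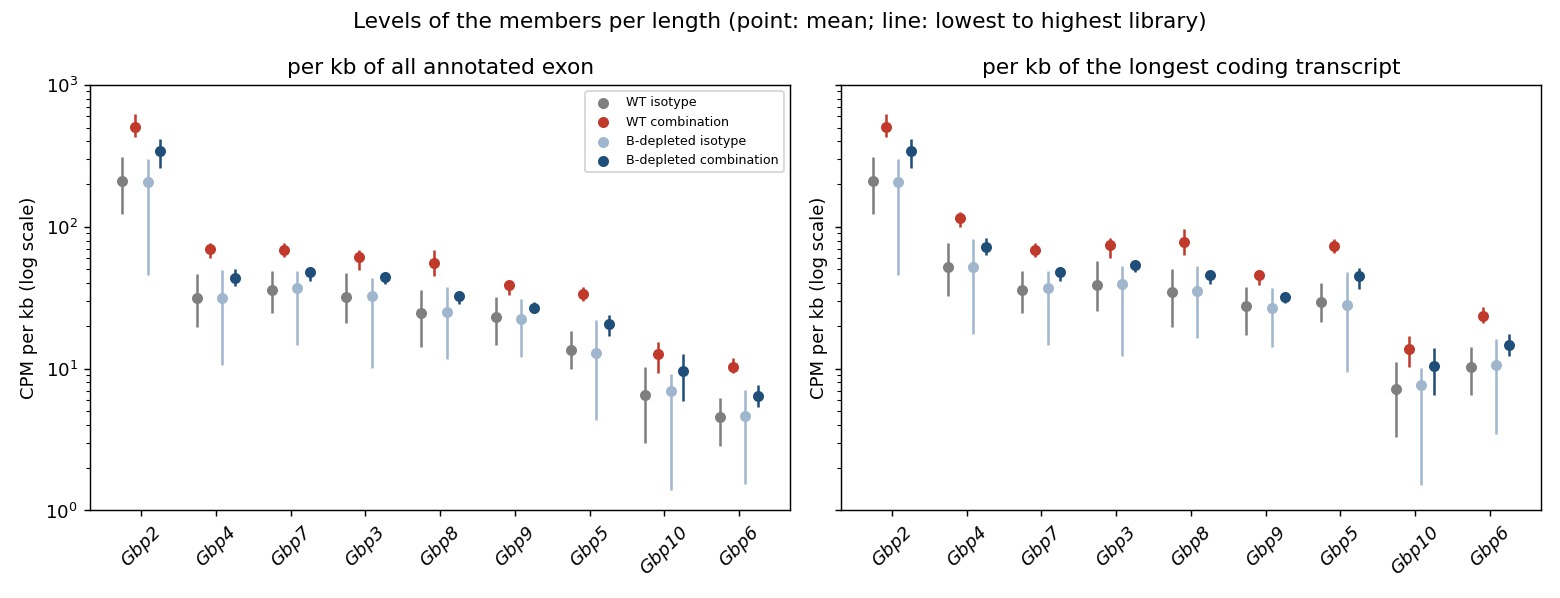
CPM per kb (log axis) of each member by arm, per kb of all annotated exon (left) and of the longest coding transcript (right); points are means and lines run from the lowest to the highest library. Gbp2 is highest in both panels, and Gbp6 and Gbp10, whose counts are least certain, are lowest.

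The members varied together from library to library. Over the 21 libraries the 36 pairs of members correlated at r = 0.829 to 0.993 (log2 CPM), with Gbp4 and Gbp6 the closest pair and Gbp8 and Gbp10 the least close. After subtracting each arm's mean the range was 0.767 to 0.983. These values describe libraries that share arms and, within 1 library, depth. B-depleted isotype replicate 6 had a mean scaled level of the members of -2.73, against -0.743 to 0.325 in the rest of its arm. It weighs heavily on these r values, which were not computed without it.

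The members did not rise in a fixed ratio in WT tumours. The log2 ratio of 2 members within a library, which does not depend on library scaling, was compared between arms for all 36 pairs by a two-sided exact permutation test (252 splits for 5 against 5, smallest p 0.0079). In WT, 7 pairs passed after adjustment over the 36, each at an adjusted p of 0.0408: Gbp2, Gbp4, Gbp5, Gbp6 and Gbp8 each gained on Gbp9, and Gbp2 and Gbp5 each gained on Gbp7. The log2 ratio of Gbp5 to Gbp9 went from -0.40 ± 0.20 to 0.17 ± 0.10 and that of Gbp2 to Gbp9 from 2.11 ± 0.24 to 2.67 ± 0.21 (SD, n = 5 each). The count was 0 without WT isotype replicate 1 or 4 and without any 1 of the 5 WT combination libraries. Such a refit has 126 splits with the same smallest p, and fewer than 6 pairs at that p do not pass on their own, so the count can drop from 6 or more to 0 at once; where it was 0, the smallest adjusted p was 0.0571 to 0.0816. No pair passed in the other 3 comparisons: the smallest adjusted p was 0.104 for the combination in B-depleted tumours, where 11 pairs had an unadjusted p under 0.05, 0.991 between WT and B-depleted tumours given isotype and 0.286 between those given the combination.

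The 5 genes outside the members most like their mean level, among 13273 genes, were Irgm2 (r = 0.988 over 21 libraries, 0.977 within arms), Irf1 (0.987 and 0.975), Nlrc5 (0.984 and 0.966), Igtp (0.983 and 0.968) and Iigp1 (0.983 and 0.964). Irf1 is a transcription factor of the interferon response, Nlrc5 is an activator of MHC class I genes, and Irgm2, Igtp and Iigp1 are immunity-related GTPases. Ifng itself ranked 123, at 0.902 and 0.804, and it was counted at only 10 to 187 reads per library. B-depleted isotype replicate 6, where the members were lowest, weighs on all these r values, which were not computed without it.

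In a list of Ifng and the chains of the interferon-gamma receptor (Ifngr1, Ifngr2) and of the type I interferon receptor (Ifnar1, Ifnar2), 5 of 5 genes were called higher in WT. Ifng, which encodes interferon-gamma, rose from 1.92 ± 0.90 to 9.44 ± 1.61 CPM (SD, n = 5 each; 2.33 ± 0.32, edgeR adjusted p = 5.85e-05). Ifngr1 (0.49), Ifngr2 (0.40) and Ifnar2 (0.84) rose with smaller estimates. In B-depleted tumours Ifng was the 1 gene of the 5 called, from 1.71 ± 0.79 (n = 6) to 4.81 ± 0.97 CPM (n = 5; 1.51 ± 0.31, edgeR adjusted p = 0.0373). Ifng thus passed in B-depleted tumours where no member did, but whether its response differed from that of the members was not tested. Under the combination it was lower in B-depleted than in WT tumours (-0.99 ± 0.30, edgeR adjusted p = 0.0239), as were Ifngr1 and Ifnar2.

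Of 10 signalling genes in WT, 8 were called higher and 1 lower. The smallest p-values belonged to the transcription factors Irf2 (0.57) and Irf8 (0.77), the kinase Jak1 (0.81) and the feedback inhibitor Socs1 (1.23). The 1 that fell was the kinase Jak2 (-0.59 ± 0.10, edgeR adjusted p = 0.000285), named after its value was seen. None of the 10 was called in B-depleted tumours (Socs1 0.61, edgeR adjusted p = 0.183; 5 of 10 at an unadjusted p under 0.05). Under the combination 5 were lower in B-depleted tumours, Irf2, Irf8, Jak1 and Tyk2 with the smallest p-values, and Jak2 was higher (0.39).

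The immunity-related GTPases work beside the members on the same vacuoles. Of 8, 7 were called higher in WT, with a median of 1.02 against 1.17 for the members, and Ifi47 (1.03 ± 0.19), Iigp1 (1.18 ± 0.25), Irgm2 (1.01 ± 0.23) and Gm12250 (1.15 ± 0.27) had the smallest p-values. None was called in B-depleted tumours (median 0.38). Ifi47 (-0.65), Iigp1 (-0.74) and Irgm2 (-0.66) were lower in B-depleted than in WT tumours under the combination.

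Of the 2 other guanylate-binding genes, 1 was called in WT. Gbp11, annotated as a polymorphic pseudogene, rose in WT from 8.16 ± 2.46 to 17.9 ± 2.68 CPM (1.16 ± 0.28, edgeR adjusted p = 0.00241). Gbp2b, the neighbour of Gbp2, was at 50.6 ± 16.7 and 72.0 ± 17.1 CPM and was not called (0.54 ± 0.32, edgeR adjusted p = 0.170). Gbp2b was at 57.8, 72.44, 31.63, 36.31 and 54.66 CPM in WT isotype and at 82.61, 65.85, 87.87, 78.53 and 45.15 CPM in WT combination, so its arms overlapped where those of Gbp2 did not. Whether its response differed from that of Gbp2 was not tested. The members' mean level correlated with Gbp11 at r = 0.952 and with Gbp2b at 0.778 over the 21 libraries.

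Genes of processes linked to the members were read as 3 lists. Of 10 genes of the autophagy conjugation machinery, which targets the GTPases to vacuoles, 2 were higher in WT, Atg5 (0.44 ± 0.09, edgeR adjusted p = 0.000829) and Gabarap (0.46 ± 0.10, 0.00156), and the median of the 10 was 0.02. Of 5 prenylation genes, whose products attach and process lipid anchors of proteins, 1 was lower, Fntb (-0.88 ± 0.21, edgeR adjusted p = 0.00245). It encodes a subunit of the farnesyltransferase, and whether that enzyme acts on any member was not tested. Of all genes, 25.0% were called higher in WT and 9529 of 19061 in either direction. The counts of these 2 lists were not above those shares. Of 8 inflammasome and pyroptosis genes, 5 were higher in WT, with Pycard (1.49), Il18 (0.86), Casp1 (0.74) and Casp4 (0.73) the first by p. In B-depleted tumours none of these 3 groups had a called gene. Under the combination Il18 (-0.94), Pycard (-1.01) and Casp1 (-0.60) were lower in B-depleted than in WT tumours, Fntb (0.57) and Rce1 (0.31) were higher, and 0 of 10 autophagy genes were called.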

How the data were processed

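The authors deposited 1 table of raw read counts per gene for 21 tumour libraries. Reads were processed with cutadapt 2.4, STAR 2.7.2a and GRCm38, per the submitters' processing notes; which program counted reads, with which strand setting and annotation release, is not given in the sources used here. Groups came from the sample titles. The analysis ran in R 4.3.3 and edgeR 4.0.16: filterByExpr kept 19061 of 55487 genes (15936 were at 0 in every library), TMM scaling and a robust quasi-likelihood fit of 4 groups over 21 libraries were used, and p-values were adjusted by Benjamini-Hochberg over all genes tested. SEs are the log2 fold change divided by the root of F. Levels are CPM of the library total, without TMM factors. The common biological coefficient of variation was 0.246. Total counts were 9.523 to 19.17 M, so 1 CPM was 9.523 to 19.17 counts.

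Members were the 9 symbols Gbp2 to Gbp10. The members and lists were chosen with earlier results of these data known. Genes outside the members were named by rule: up to 4 called genes of each pathway list by smallest p, or 2 as values where none passed, and the 5 genes most correlated with the members' mean (log2 CPM, prior count 2, mean CPM of at least 1, predicted genes left out). Some genes are not reported here and were left out of the lists and of that search. Markers are described by counts and summed CPM. Sequence was taken from RefSeq and GENCODE M21. The scripts were tested on simulated data. Alternatives were RLE scaling, DESeq2 1.42.0, limma 3.58.1 voom, no filter, only the compared groups, 2 replicate blocks and leaving out each library. Chosen after seeing the data were a Y-linked covariate, leaving out 2 WT isotype libraries and leaving out 3 B-depleted libraries.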

Additional observations from a re-analysis of the deposited data

Results flagged for a closer look

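In 2 of 36 combinations of member and arm, 1 library lay far from the others of its arm relative to the arm's range; chance marks about 5% of such groups. Gbp10 in B-depleted isotype replicate 6 was the lowest of its arm at 5.37 CPM (103 counts), against 29.51 to 35.78 CPM in the other 5 libraries. Gbp8 in B-depleted combination replicate 5 was the lowest of its arm at 97.6 CPM, against 115.2 to 117.6 CPM in the other 4. All 9 members were lowest in the first of these libraries. In the second, fibroblast markers summed to 24410 CPM and neutrophil markers to 729.4 CPM, both the highest of that arm, and hepatoma markers to 841.5 CPM, the lowest. The part of cell content in either value was not tested.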

How the results depend on the processing

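The rise of 9 members in WT held under RLE scaling, DESeq2, limma voom, the 2 compared arms alone, both replicate blocks and both added sets of left-out libraries; 8 were called with no filter on low counts (Gbp10 0.94, adjusted p = 0.0996) and 0 with the Y-linked covariate. Leaving out each library gave 8 to 9. The count of 0 in B-depleted tumours and of 0 for B-depleted against WT under isotype was the same under every alternative. For B-depleted against WT under the combination, 3 members became 5 with DESeq2, 0 with no filter, 8 with the 2 arms alone, 0 with the Y-linked covariate and 5 without 2 WT isotype libraries, and 0 to 8 on leaving out each library. The interaction's 0 stayed 0 in every leave-one-out refit and became 2 without 2 WT isotype libraries. Those 2 had the highest member sums of their arm. A further refit without B-depleted isotype replicate 6 and combination replicate 5 was run and then dropped after its result was seen, because these 2 libraries had been picked on the members' levels; it called more members under the combination and in the interaction than the fit to all libraries.

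Replicate numbers did not pair the libraries. Same-numbered libraries of different arms correlated at a median of 0.027 by title number (9 of 30 pairs over 0.1; 3 of 21 libraries correlated best with their own number) and -0.028 by the digit of the description code (7 of 27; 4 of 21). With the replicate number as a block, members called lower under the combination were 7 by title number and 1 by code digit; member counts in the other comparisons did not move.

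Between B-depleted and WT tumours given isotype, where no member was called, signs changed. With the replicate block by title number Gbp2, Gbp4, Gbp5 and Gbp9 were at 0.191, 0.177, 0.0748 and 0.0846, and by code digit Gbp2 and Gbp4 at 0.0164 and 0.0342. With limma voom Gbp3, Gbp6, Gbp7, Gbp8 and Gbp10 were at -0.0633, -0.0793, -0.0271, -0.00894 and -0.0140, and with the Y-linked covariate Gbp3, Gbp6 and Gbp8 at -0.0171, -0.0378 and -0.0589. Without 2 WT isotype libraries Gbp2, Gbp4, Gbp5 and Gbp9 were at 0.27, 0.30, 0.14 and 0.27. Without 3 B-depleted libraries Gbp3, Gbp6, Gbp7, Gbp8 and Gbp10 were at -0.24, -0.29, -0.14, -0.26 and -0.0775. Leaving out each library gave -0.19 to 0.16 for Gbp2, -0.10 to 0.20 for Gbp3, -0.20 to 0.15 for Gbp4, -0.32 to 0.0853 for Gbp5, -0.15 to 0.20 for Gbp6, -0.0692 to 0.19 for Gbp7, -0.14 to 0.17 for Gbp8, -0.18 to 0.0662 for Gbp9 and -0.0948 to 0.30 for Gbp10.

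Over all genes, calls for the combination in B-depleted tumours went from 65 to 388 with DESeq2, 102 with limma voom, 35 with no filter, 6 with the 2 arms alone, 33 and 14 with the replicate blocks, 31 with the Y-linked covariate, 40 without 2 WT isotype libraries and 397 without 3 B-depleted libraries, and were 11 to 176 on leaving out each library. For B-depleted against WT under the combination 5545 became 3343 with no filter and 4 with the Y-linked covariate (2182 to 7606 on leaving out each library). The interaction's 5 became 1181 with DESeq2, 0 with the title block and with the Y-linked covariate, 2007 without 2 WT isotype libraries and 1 without 3 B-depleted libraries (0 to 1540 on leaving out each library). The causes were not tested.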
